A study of Mus musculus with 8 samples.

Results

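A microRNA (miRNA) is cut from a hairpin, and the testis small RNA counts of this study list some miRNAs under the name of the hairpin itself. These precursor-named entries carry names such as pre-mmu-mir-16-1, with a lower-case r, beside entries for the mature miRNAs, such as mmu-miR-16-5p. They were chosen by name alone: entries of the miRNA class that carry neither a mature name nor an Ensembl transcript identifier. They numbered 57 of the 730 miRNA class entries, of which 576 had mature names and 97 had Ensembl names, and of 20558 small RNAs in all. Hairpins are written below as mir-16-1, and mature miRNAs as miR-16-5p.

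The testes came from 8 adult C57Bl/6 male mice. The 4 standard diet (SD) mice, M1N, M2N, TN1 and TN2, are labelled as controls. The 4 Western-like diet (WD) mice, M1W, M2W, M3W and M5W, are labelled as experimental, and their labels give a lipid-rich diet begun at 4 weeks of age and a mating at 4 months. The study's methods give a slightly earlier start of the diet, and the same sentence on the diet stands in the control labels, where it was not used. Each sample was 1 mouse, and whole testis holds germ cells at all stages together with Sertoli, Leydig and blood vessel cells, so fewer cells of a type and less RNA per cell cannot be told apart. The question of the comparison was whether the diet of the males was accompanied by a different set of small RNAs in their testes.

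In the nucleus, Drosha cuts a stem-loop out of a longer primary transcript, and in the cytoplasm Dicer removes its loop and leaves a duplex of the 5p and 3p arms. One arm is usually kept in Argonaute, where the bases of its seed pair with messenger RNAs, while the other arm and the loop are degraded. The hairpin is therefore a short-lived intermediate, and in most tissues it is far less abundant than its arms. A miRNA made from several genes has one mature sequence but a hairpin of its own for each gene, so hairpin names can tell apart loci that the mature name merges. Male germ cells are known for large amounts of the miR-34 and miR-449 families.

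Reads had been kept up to the adaptor, or to 31 bases without one, so a read cut at 31 bases did not span a whole hairpin. A count does not tell which part of a hairpin the reads covered. Sequences are shown where they help to read the counts. All are from RefSeq (GRCm38.p6), 5′ to 3′, with the mature arms that RefSeq gives in capitals and the rest of the hairpin in lower case. RefSeq held 41 of the 57 hairpins, and each of these matched exactly 1 place in mm9, the authors' build, which gave the positions quoted. The first 3 are shown because mir-16-1 and mir-16-2 are separate genes for one mature miRNA and mir-15b is the neighbour of mir-16-2.
mir-16-2: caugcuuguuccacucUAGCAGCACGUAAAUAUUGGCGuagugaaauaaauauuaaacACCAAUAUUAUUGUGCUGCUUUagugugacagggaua
mir-16-1: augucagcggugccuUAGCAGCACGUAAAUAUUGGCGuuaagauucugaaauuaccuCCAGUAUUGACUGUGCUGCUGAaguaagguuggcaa
mir-15b: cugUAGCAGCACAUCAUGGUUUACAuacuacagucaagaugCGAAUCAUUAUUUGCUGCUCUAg
The 5p arms of mir-16-1 and mir-16-2 are the same miRNA, and the longest run that the hairpins share is 23 bases. Their loops and 3p arms differ, so reads from those parts can be assigned to one locus. With the seed (bases 2 to 8) in capitals, the 5p arms read as follows and share the seed AGCAGCA.
miR-16-5p: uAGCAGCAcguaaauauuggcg
miR-15b-5p: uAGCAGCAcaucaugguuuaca
mir-15b and mir-16-2 lie 66 bases apart on the plus strand in an intron of Smc4, a condensin subunit gene, at chr3:68813694-68813757 and chr3:68813824-68813918. mir-16-1 lies on the minus strand in an intron of Dleu2, a long non-coding RNA gene, at chr14:62250717-62250809.

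The next hairpins are shown for their place or sequence: mir-468 as the most counted hairpin with a RefSeq entry, mir-449a as a classic hairpin of the germ cell family, and the others for repeats or overlap with other RNA.
mir-468: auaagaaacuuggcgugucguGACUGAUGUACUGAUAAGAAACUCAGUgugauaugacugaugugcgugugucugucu
mir-449a: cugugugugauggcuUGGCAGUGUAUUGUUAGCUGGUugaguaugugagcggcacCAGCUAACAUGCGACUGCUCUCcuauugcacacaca
mir-5128: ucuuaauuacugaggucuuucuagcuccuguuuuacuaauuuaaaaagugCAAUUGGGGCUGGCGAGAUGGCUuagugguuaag
mir-5121: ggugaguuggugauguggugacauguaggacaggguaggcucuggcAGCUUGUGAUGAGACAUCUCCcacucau
mir-1983: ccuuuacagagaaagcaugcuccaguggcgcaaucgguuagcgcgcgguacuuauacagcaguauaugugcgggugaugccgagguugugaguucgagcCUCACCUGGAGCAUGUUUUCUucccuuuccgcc
mir-468 at chr6:81846593-81846670 (minus strand) lies between annotated genes, and RefSeq gives it an arm of 27 bases. mir-449a at chr13:113827742-113827832 lies in an intron of Cdc20b, 1442 bases from mir-449c, and holds the GGCAGUG seed that miR-449 shares with miR-34. mir-5128 at chr2:37543721-37543804 (minus strand) lies in an intron of Strbp, and 17 of its 65 windows of 20 bases occur at several places of mm9, up to 825. mir-5121 at chr7:52382288-52382361 (minus strand) overlaps the small nucleolar RNA Snord33 within the ribosomal protein gene Rpl13a. mir-1983 at chr13:21988787-21988918 (minus strand) holds transfer RNA sequence, and 55 of its 113 windows occur elsewhere, up to 19 times. For entries such as these, reads of the host RNA or of a repeat can be counted under the hairpin name, and how a read with several matches was counted is not given in the sources used here. By the same measure, 22 of the 41 hairpins had no window of 20 bases that occurs at a further place, and 19 had at least 1, including 5 of 76 windows of mir-16-2 and 4 of 74 of mir-16-1.

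The hairpins lay on 14 chromosomes, measured 64 to 132 bases (median 86) and had a GC content of 36.8% to 79.6%. Protein-coding genes on the same strand held 22 of them, 16 in introns alone and 6 over an exon of at least 1 transcript. A further 5 lay only in long non-coding transcripts, and 3 overlapped small nucleolar RNA genes: mir-5121, mir-3068 and mir-677. Close neighbours among the entries were mir-93 and mir-106b, 126 bases apart in Mcm7, a replication helicase gene, and mir-191 and mir-425, 384 bases apart. Of the 32 hairpins with both arms in RefSeq, the loops measured 12 to 34 bases (median 17), and 14 had no stretch outside the arms of 18 bases or more. In these 14, a read of that length must overlap an arm. mir-15b was the most counted of them with 221 counts, but the GENCODE M1 gene for it is 98 bases long and that of RefSeq 64. The bounds of the other 34 hairpins with such a gene were the same in both.

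The depth was 2064562 to 3253798 counts per mouse, and 3 counts, the smallest amount taken as shown, equalled 0.933 to 1.39 CPM (counts scaled to the library size and the TMM factors). This floor and the intervals below cover counting error only, since amplified reads are not independent molecules. The precursor-named entries were rare. Together they held 3786 counts over the 8 mice, and a single entry held 9 to 601 (median 28). Totals under 10 were seen for 4 entries, under 20 for 22, under 50 for 38 and under 100 for 49. At least 1 count was present in every mouse for 35 entries, and 22 were at 0 in at least 1 mouse. At least 3 counts in every mouse were present for 15. The mean CPM of 30 entries was under the highest of these floors. The 3 most counted entries held 37.9% of the counts, and the 11 that passed the filter on low counts held 67.0%.

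Counts of single mice are given in the order M1N, M2N, TN1, TN2 for SD and M1W, M2W, M3W, M5W for WD. The most counted entry, mir-5105, had 81, 73, 111 and 93 counts in SD mice and 48, 78, 46 and 71 in WD mice. mir-468 had 61, 59, 78 and 61 counts in SD mice and 75, 54, 35 and 83 in WD mice. mir-15b had 48, 29, 32 and 18 counts in SD mice and 23, 23, 20 and 28 in WD mice. For each of these the ranges of the diets overlapped, although M1N was the highest of all mice for mir-15b. mir-328 had 23, 39, 37 and 20 counts in SD mice against 25, 14, 26 and 22 in WD mice. mir-21, the hairpin of a miRNA found in most cell types, had 17, 21, 20 and 14 counts in SD mice and 20, 17, 23 and 27 in WD mice. mir-297a-2, a locus of a repeated family, had 27, 15, 12 and 18 counts in SD mice and 18, 13, 9 and 15 in WD mice. These also overlapped. mir-5099 had 13, 13, 11 and 6 counts in SD mice against 12, 7, 9 and 18 in WD mice. Of the germ cell family, mir-449b had 15, 12, 11 and 10 counts in SD mice against 10, 10, 8 and 5 in WD mice, and mir-449a had 12, 10, 6 and 8 against 10, 3, 11 and 6. M5W was the lowest mouse for mir-449b and M2W for mir-449a.
Divided by the length of the hairpin, the mean count per mouse and 100 bases was 81.1 for mir-468, 43.3 for mir-16-2, 43.2 for mir-15b, 20.2 for mir-16-1, 15 for mir-5099 and 9.07 for mir-449a. By diet, mir-16-2 had 34.2 counts per 100 bases in SD mice and 52.4 in WD mice, mir-15b 49.6 and 36.7, and mir-16-1 26.3 and 14.0. These are counts not scaled to depth, divided by the whole hairpin, although the arms have entries of their own. RefSeq leaves 20 bases of mir-15b and 51 of mir-16-2 outside the arms, so the values do not rank the loci by abundance. In M1N alone of the 8 mice, mir-16-2 had fewer counts than mir-16-1. The values of mir-15b rest on the RefSeq length, and with the GENCODE M1 length of 98 bases they were 32.4 and 23.98, below mir-16-2 on both diets, whereas with the RefSeq length mir-15b lay above mir-16-2 in SD mice. That order leaned on M1N, with 48 counts of mir-15b and 12 of mir-16-2. In M2N, TN1 and TN2, mir-16-2 had more counts than mir-15b.

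**Figure D1:**
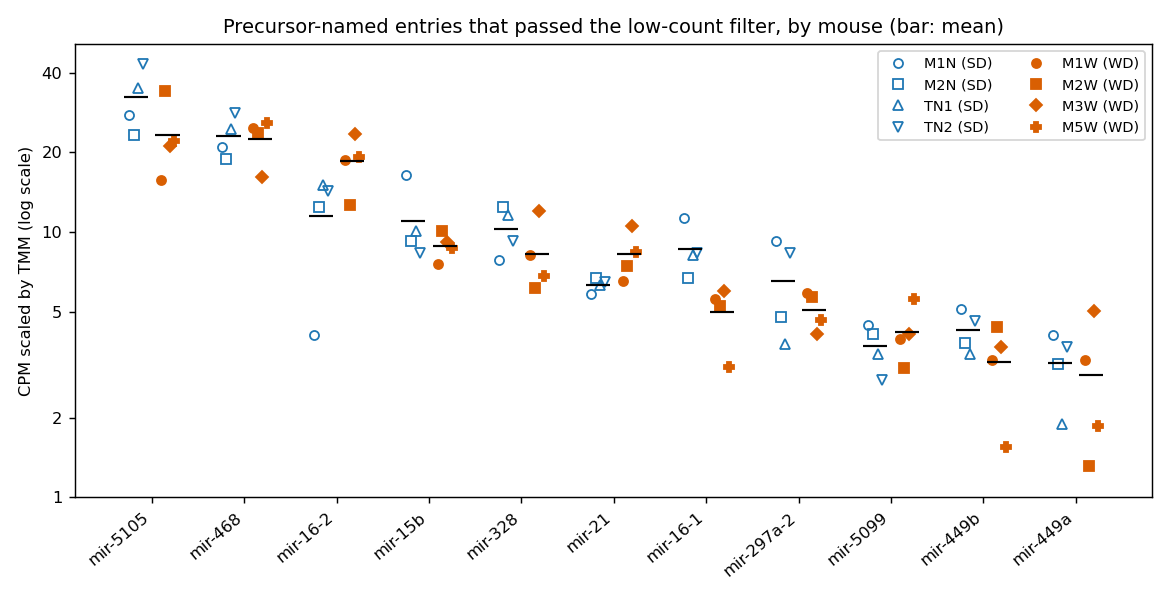
Level of each of the 11 precursor-named entries that passed the filter on low counts, in CPM scaled by TMM (log scale), with 1 point per mouse, open blue for SD, filled orange for WD, and a bar at the mean of each diet. The SD and WD points of mir-16-1 do not overlap, those of the other 10 do, and M1N lies far below the other mice for mir-16-2.

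The mature arms were far more abundant than the hairpin names. The table listed at least 1 arm for 51 entries, both arms for 35 and 1 arm for 16, in 84 arm entries with 835475 counts. Per 1000 counts of its arms, the median entry had 13.6 counts, 23 entries had under 10 and 8 had under 1. The lowest was mir-34a, a member of the p53-responsive family, with 13 counts beside 79333 on its arms, or 0.164 per 1000. mir-34c, whose miR-34c-5p was a major miRNA of these testes, had 65 counts beside 181955, or 0.357 per 1000. mir-125b-1 and mir-125b-2, genes for one 5p arm, had 0.328 and 0.283 per 1000, and mir-103-2, in an intron of the pantothenate kinase gene Pank2, had 0.359. Of the 77943 arm counts of mir-103-2, 77852 were of miR-103-3p, a name that does not single out this locus. Higher on the scale, mir-16-1 had 2.24 per 1000, mir-449a 2.38, mir-15b 4.62, mir-16-2 4.85, mir-21 8.82, mir-468 42.7 and mir-328 58.2. The values of mir-16-1 and mir-16-2 both rest on miR-16-5p, the arm that they share.
At the other end, 4 entries had more counts than their arms. mir-5105 had 601 counts beside 14 of miR-5105. mir-449b had 81 beside 44, mir-5102 had 58 beside 17 and mir-3096b had 40 beside 35. The entry overlapping Snord33, mir-5121, had 56 counts beside 118, and the entry with transfer RNA sequence, mir-1983, had 42 beside 53. These were 475 and 792 per 1000. The other entries in small nucleolar RNA genes, mir-677 and mir-3068, had 360 and 18.6 per 1000, from 9 and 12 counts. No arm was listed for 6 entries: mir-5128 with 66 counts, mir-3096 with 50, mir-546 with 48, mir-721 with 34, mir-5131 with 17 and mir-5132 with 11. mir-546 overlaps an exon of Ctdsp2, mir-5131 an exon of Ddhd1 and mir-5132 an exon of Irak1.

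**Figure D2:**
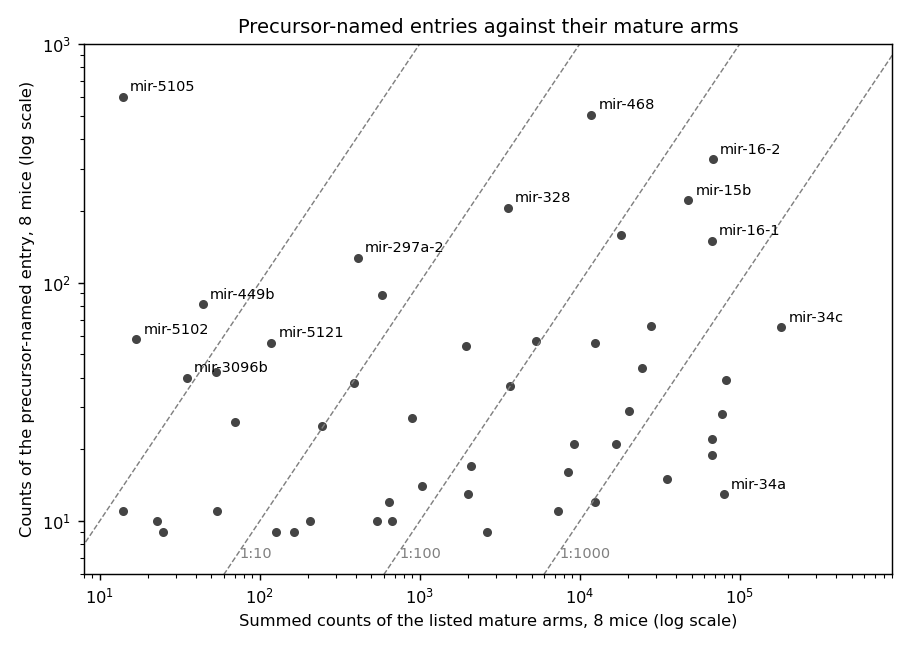
Counts of each of the 51 precursor-named entries with a listed arm (vertical, log scale) against the summed counts of its mature arms (horizontal, log scale), both over 8 mice, with dashed lines at ratios of 1:1, 1:10, 1:100 and 1:1000. mir-5105, mir-449b, mir-5102 and mir-3096b lie above the 1:1 line, and mir-34a lies lowest of all relative to its arms.

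Grouped by how and where hairpins are made, few lists were represented. Of 6 names of mirtrons, hairpins released by splicing instead of by Drosha, mir-5132 alone was present, with 0, 3, 0 and 0 counts in SD mice and 4, 1, 3 and 0 in WD mice. None of 3 names of Drosha-independent hairpins and none of 15 names of the testis X chromosome clusters were present. Of 6 names of hairpins that overlap other non-coding RNA, mir-1983 alone was present, with 2, 5, 7 and 6 counts in SD mice and 5, 6, 4 and 7 in WD mice. The imprinted Dlk1-Dio3 list of 46 names held mir-369 with 26 counts and mir-345 with 14, neither past the filter. mir-3072, outside that list, lies with mir-369 in Mirg, a long non-coding transcript of the same region, and had 9 counts. The list for the Sfmbt2 intron, 5 family names, held mir-468, mir-297a-2 and mir-466g, although the RefSeq locus of mir-468 is on another chromosome than Sfmbt2. Of these, mir-468 and mir-297a-2 passed the filter, and neither met the criteria below. Of the 13 miRNAs that the study listed as changed by diet, the hairpin of 1, mir-468, was among the entries, and that list was chosen on these samples.

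Taken as a whole, the share of miRNA class counts on precursor names did not differ between diets beyond the spread between mice. The share was 0.147% (95% Wilson interval 0.135% to 0.160%) in M1N, 0.144% (0.132% to 0.157%) in M2N, 0.194% (0.179% to 0.210%) in TN1 and 0.219% (0.199% to 0.241%) in TN2. It was 0.170% (0.155% to 0.186%) in M1W, 0.133% (0.120% to 0.147%) in M2W, 0.171% (0.155% to 0.189%) in M3W and 0.174% (0.159% to 0.189%) in M5W. The TN mice had the highest shares, and the other SD mice lay below 3 of the 4 WD mice. The mean was 0.176% ± 0.0366 (SD of 4 mice) on the standard diet and 0.162% ± 0.0194 on the Western-like diet, a difference of -0.0141 percentage points (exact permutation test, two-sided, 70 assignments, p = 0.6). Of the 57 entries, 44 to 52 had at least 1 count in a mouse, fewest in TN2, the shallowest library.

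For single entries, WD was tested against SD with edgeR's quasi-likelihood test over the 16955 small RNAs with enough counts. The study's own criteria for miRNAs were a raw p of at most 0.1 together with a change of at least 1.5-fold. By them, 2 of the 11 entries tested were called: mir-16-2 higher and mir-16-1 lower in WD mice. These were 18.2% of the 11. Over all small RNAs tested 10.7% were called, 5.38% higher and 5.31% lower, and over the mature miRNAs 13.4%. After Benjamini-Hochberg adjustment over all small RNAs, 0 of the 11 entries had an adjusted p under 0.05 by edgeR, with 2 at a raw p of at most 0.05, and DESeq2 and limma also gave 0. Over all small RNAs the adjusted share was 0%, with 2474 at a raw p of at most 0.05. The smallest adjusted p of an entry was 0.318 (edgeR).
The fitted change was below 0 for 8 of the 11 and above 0 for 3. Their median log2 fold change was -0.32, beside -0.006 over all small RNAs tested and 0.04 over mature miRNAs. This median was the value of mir-297a-2, and it leaned on M1N. Without M1N, mir-297a-2 stood at -0.08 and mir-15b moved from -0.33 to -0.07, whereas mir-5105 and mir-328 moved further from 0, to -0.53 and -0.45.

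mir-16-1 had 33, 21, 26 and 18 counts in SD mice and 17, 12, 13 and 10 in WD mice. Every WD mouse lay below every SD mouse, on the counts and on the CPM scale alike. The mean was 8.63 ± 1.93 CPM (SD, n = 4) on the standard diet and 4.99 ± 1.29 CPM on the Western-like diet, 1.75-fold lower (log2 fold change -0.81 ± 0.29 SE, raw edgeR p of 0.0147, adjusted p = 0.318). An exact permutation test of the CPM gave p = 0.0286 (two-sided, the smallest that 4 against 4 mice allow). It was the one entry of 11 whose CPM did not overlap between diets, whereas 5.69% of all small RNAs tested did not overlap. With any 1 mouse left out it stayed within the criteria, with a log2 fold change between -0.61 and -0.91.

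mir-16-2 moved the other way. It had 12, 39, 48 and 31 counts in SD mice and 57, 29, 51 and 62 in WD mice. M1N was the lowest of all mice, and M2W lay among the SD mice, so the diets overlapped. The mean was 11.5 ± 5.06 CPM (SD, n = 4) on the standard diet and 18.6 ± 4.44 CPM on the Western-like diet, 1.62-fold higher (log2 fold change 0.69 ± 0.32 SE, raw edgeR p of 0.0442, adjusted p = 0.338). The exact permutation test on the log2 scale used for mir-16-1 gave p = 0.0857. The call rested on single mice: without M1N the log2 fold change was 0.41 (p of 0.096), and without M3W it was 0.57 (p of 0.124), neither within the criteria.
The neighbour mir-15b had a fitted change of the opposite sign and did not meet the criteria. Its mean was 11.03 ± 3.68 CPM (SD, n = 4) on the standard diet and 8.89 ± 1.05 CPM on the Western-like diet, and its log2 fold change was -0.33 ± 0.26 SE (edgeR p of 0.234). This difference too rested on M1N, without which the log2 fold change was -0.07.

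The mature arm that both loci make, miR-16-5p, had 2790 ± 244 CPM (SD, n = 4) in SD mice and 3279 ± 324 CPM in WD mice, and its log2 fold change of 0.23 ± 0.16 SE did not pass (edgeR p of 0.167). miR-16-2-3p, which mir-16-2 alone makes, had a log2 fold change of 0.25 ± 0.18 SE (p of 0.177). The counts of both loci together were 45, 60, 74 and 49 in SD mice and 74, 41, 64 and 72 in WD mice, which overlap.
The ratio of the loci was looked at after their values were seen, and is given without a test. For each count of mir-16-1 there were 0.364, 1.86, 1.85 and 1.72 counts of mir-16-2 in SD mice and 3.35, 2.42, 3.92 and 6.2 in WD mice. Every WD mouse was above every SD mouse, which follows in part from the choice of entries called in opposite directions. For each count of mir-15b there were 0.25, 1.34, 1.5 and 1.72 counts of mir-16-2 in SD mice and 2.48, 1.26, 2.55 and 2.21 in WD mice, and here M2W lay within the SD mice.

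**Figure D3:**
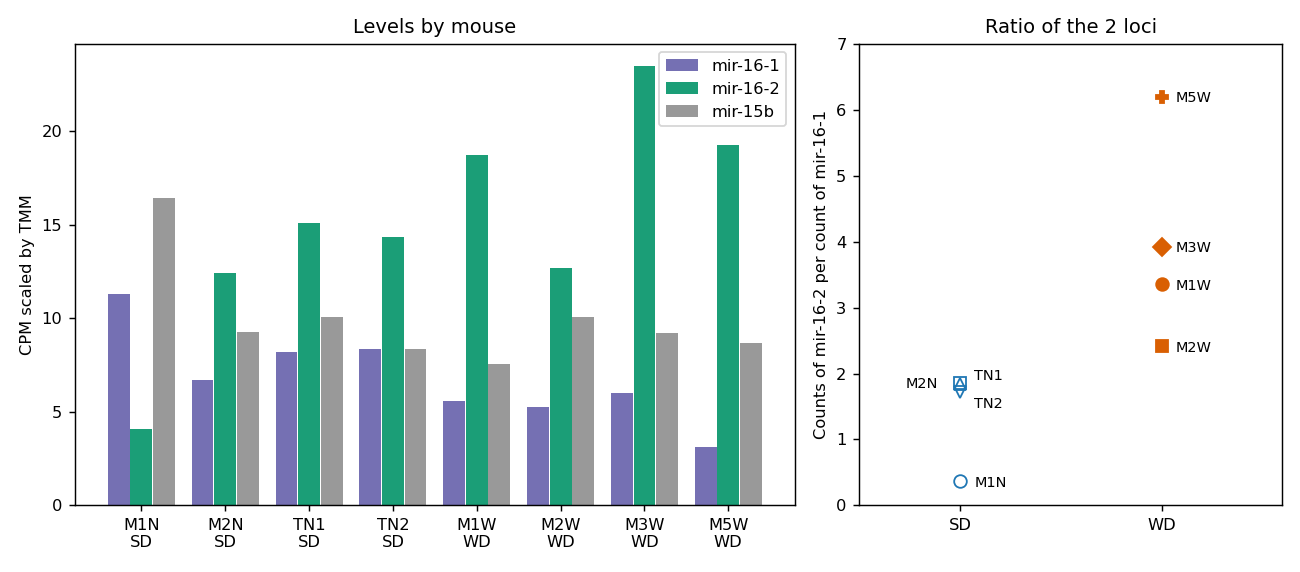
Left, level of mir-16-1, mir-16-2 and mir-15b in each mouse, in CPM scaled by TMM, 1 bar per entry. Right, counts of mir-16-2 per count of mir-16-1 in each mouse, by diet, from 0.364 in M1N to 6.2 in M5W, with the 4 WD mice above the 4 SD mice.

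Set against the listed arms, mir-16-1 was the one entry of 11 whose ratio did not overlap. Its one listed arm, miR-16-5p, is shared with mir-16-2, and the counts of mir-16-1 are those described above, so the ratio is not a separate observation. Per 1000 counts of miR-16-5p it had 4.57, 2.27, 2.72 and 3.06 counts in SD mice and 1.82, 1.77, 1.63 and 0.915 in WD mice. The difference of the mean log2 ratios was -1.02 (exact permutation test, two-sided, p = 0.0286, the smallest that 4 against 4 mice allow, not adjusted). As a background, the ratio of the 5p to the 3p arm did not overlap between diets for 3.96% of the miRNAs with both arms tested. For mir-16-2 the difference was 0.57 (exact p = 0.143), and for mir-468, whose miR-468-5p had a log2 fold change of 0.49 ± 0.23 SE (edgeR p of 0.0481, adjusted p = 0.340), it was -0.50 (exact p = 0.114). Leaving out M2W raised the number of entries without overlap from 1 to 4, adding mir-468, mir-16-2 and mir-5099, and raised the background from 3.96% to 10.9%. Among the entries that did not pass the filter, mir-184, with 2, 1, 1 and 0 counts in SD mice and 2, 3, 3 and 1 in WD mice, did not overlap after 0.5 was added to each count, but without that its ratios overlapped, at 4.89 per 1000 in M1N and 4.78 in M5W, and these counts are at or below the floor of 3.

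The remaining tested entries did not meet the criteria. mir-5105 had 32.3 ± 8.67 CPM (SD, n = 4) in SD mice and 23.3 ± 7.78 CPM in WD mice (log2 fold change -0.47 ± 0.25 SE, edgeR p of 0.0815). With a mouse left out its log2 fold change ran from -0.31 (without TN2) to -0.70 (without M2W, p of 0.0142). It met the criteria without M2W and without M2N, where it was -0.60 (p of 0.0384). mir-468 was close to level, with 23.1 ± 4.16 and 22.6 ± 4.38 CPM, and the sign of its log2 fold change of -0.02 ± 0.21 SE changed with the scaling, to 0.03 with column totals. mir-21 had 6.33 ± 0.371 and 8.26 ± 1.73 CPM (log2 fold change 0.37 ± 0.26 SE, p of 0.167), beside 0.30 ± 0.18 SE for miR-21-5p. Without M3W the value of mir-21 was 0.24, and without M1W it was 0.47. mir-449b had 4.27 ± 0.760 and 3.23 ± 1.204 CPM, and a log2 fold change of -0.43 ± 0.36 SE (p of 0.249), or -0.165 without M5W. mir-449a had 3.22 ± 0.966 and 2.88 ± 1.68 CPM, and its log2 fold change of -0.17 ± 0.43 SE (p of 0.70) stood beside -0.62 ± 0.24 SE for miR-449a-5p (p of 0.0211, adjusted p = 0.318). The arm stood at 2299 and 1640 CPM in M1N and M2N, whereas TN1 and TN2, at 1082 and 939.8 CPM, lay within the WD mice at 834.9 to 1125 CPM. mir-328 had a log2 fold change of -0.34 ± 0.27 SE, or -0.54 without M3W and -0.23 without M2W. Beside it stood -0.60 ± 0.31 SE for miR-328-3p (p of 0.0674), and this arm too was high in M1N and M2N, at 275 and 247 CPM, with TN1 and TN2 at 118 and 128 CPM among the WD mice at 77.5 to 207 CPM. The log2 fold changes of mir-297a-2 and mir-5099 were -0.32 ± 0.33 SE and 0.18 ± 0.32 SE, and the former was -0.08 without M1N.

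**Figure D4:**
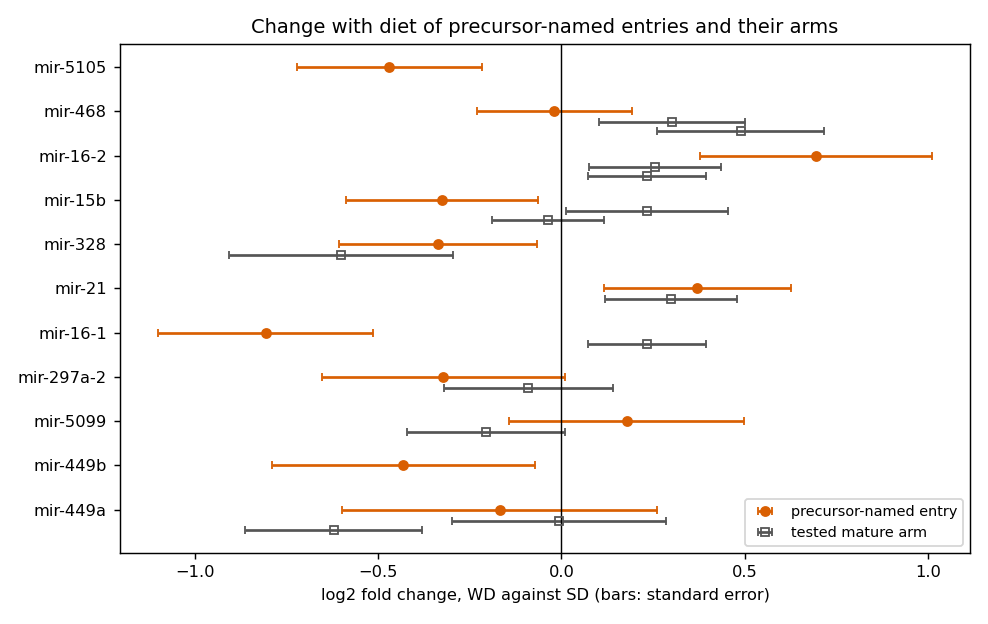
log2 fold change, WD against SD, of the 11 precursor-named entries tested (orange) and of their mature arms that were tested (grey squares below them, the 3p arm above the 5p arm where both were tested), with bars of 1 standard error. mir-16-1 at -0.81 and mir-16-2 at 0.69 lie farthest from 0 on either side, and miR-16-5p, drawn under both, lies at 0.23.

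The SD mice carried 2 kinds of names, and the result depended on which of them served as controls. Both comparisons use the same 4 WD mice. Against M1N and M2N alone, 31.3% of all small RNAs tested met the criteria and 20.8% had an adjusted p under 0.05, and against TN1 and TN2 alone 3.22% met the criteria. Against M1N and M2N, mir-16-2 had a log2 fold change of 1.15 ± 0.35 SE (edgeR p of 0.00348, adjusted p = 0.0245), and against TN1 and TN2 it had 0.33 ± 0.26 SE (p of 0.216). mir-16-1 met the criteria against either pair, with -0.86 (p of 0.0275, adjusted p = 0.0944) and -0.75 (p of 0.0436, adjusted p = 0.9999). mir-5105 met them against the TN mice, with -0.75 (p of 0.00562, adjusted p = 0.9999), and not against the M mice, with -0.14 (p of 0.598, adjusted p = 0.734). The entries called were mir-16-1 and mir-16-2 in the first comparison, and in the second mir-16-1, mir-5105 and a further 2, mir-5102 and mir-34c, that did not pass the filter on all 8 mice. What the letters stand for is not given, and the difference between the pairs was not tested.
mir-5102 had 2 and 4 counts in M1N and M2N, 28 and 15 in TN1 and TN2, and 2, 0, 7 and 0 in WD mice. Both TN mice were above all others, and it is these mice that carried the entry past the filter in that comparison, so no fold or p is given. mir-34c had 11 and 9 counts in M1N and M2N, 5 and 2 in TN1 and TN2, and 8, 5, 11 and 14 in WD mice, with the TN mice at the low end. In the comparison with the TN mice, mir-34c passed the filter through WD mice with more counts. Its call is therefore given without a fold or p as well. Marker miRNAs differed between the pairs as well. The neuronal markers summed to 29.1 and 31.6 CPM in M1N and M2N and to 90.4 and 87.5 CPM in TN1 and TN2, which lie at the level of the WD mice (86.2 to 159 CPM). White blood cell markers summed to 508 and 402 CPM in the M mice, 240 and 221 CPM in the TN mice and 203 to 443 CPM in WD mice, and the liver marker miR-122-5p was at 0 in the M and the WD mice and at 15.4 and 12.97 CPM in the TN mice. The part of these markers in the values of mir-16-2, mir-5105, mir-5102 and mir-34c was not tested.
Over all small RNAs, the share meeting the criteria also moved with the mice used. It was 5.19% without M1N, 14.1% without M2W and 11.5% without M3W. With M1N, M2N, M1W and M2W alone, without the TN mice, it was 27.4%, or 27.3% with the number as a block, and with no filter on low counts it was 11%.

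The 46 entries that did not pass the filter were described by their counts. None of them had diets that did not overlap on the CPM scale. The summed count was larger in WD mice for 22, larger in SD mice for 20 and equal for 4. mir-5128, the repeat-bearing hairpin, had 8, 4, 11 and 5 counts in SD mice and 9, 17, 2 and 10 in WD mice, with the highest and the lowest mouse both on the Western-like diet. mir-191 had 2, 0, 6 and 1 counts in SD mice and 15, 3, 4 and 8 in WD mice. Its neighbour mir-425 had 8, 4, 8 and 2 counts in SD mice and 4, 5, 2 and 4 in WD mice, so the summed count was larger in WD mice for mir-191 and in SD mice for mir-425, and both overlapped between diets. mir-93, in the Mcm7 cluster, had 28 counts in the SD mice and 28 in the WD mice. let-7a-1, a locus of the let-7 family, had 24 and 20. The loci of miR-125b, mir-125b-1 and mir-125b-2, had 9 and 8 counts in SD mice and 13 and 11 in WD mice. mir-15a, of the same seed family as mir-16, had 10 counts in SD mice and 11 in WD mice. mir-3096 had 33 and 17 counts, and mir-3096b, an entry of similar name, had 25 and 15.

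Marker miRNAs were read in the same libraries. The germ cell list, with 9 of 10 names present, summed to 15252 to 19971 CPM in SD mice and 15026 to 19925 CPM in WD mice. The gonadal somatic list, miR-202-5p and miR-202-3p, summed to 3609 to 4193 CPM in SD mice and 4187 to 7021 CPM in WD mice, with M2W highest and M1W alone below the highest SD mouse. This sum was nearly all miR-202-5p, with means of 3833 CPM in SD mice and 4891 CPM in WD mice. miR-202-3p went the other way, with means of 146 and 115 CPM. All 4 white blood cell markers and both neuronal markers were listed, with the values given above by pair of SD mice. The white blood cell markers did not move together. The means of miR-223-3p and miR-150-5p were higher in SD mice, and those of miR-142-3p and miR-142-5p in WD mice. The endothelial miR-126-3p stood at 989 to 1537 CPM in SD mice and 944 to 1788 CPM in WD mice. Muscle markers, 2 of 3 listed, summed to 36.7 to 46.3 CPM and 26.7 to 51.7 CPM, and the one red blood cell marker listed of 3, miR-144-3p, to 0.957 to 6.95 CPM and 2.30 to 4.27 CPM. The part of these differences in the values of mir-16-1 and mir-16-2 was not tested.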

How the data were processed

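Small RNA of the testes of 8 mice, 4 per diet, was extracted with Trizol and sequenced on a SOLiD instrument after a total RNA library kit. The authors kept reads up to the adaptor or to 31 bases, mapped them with Bowtie against mm9 (up to 2 mismatches), named them by miRBase release 18, Rfam and a non-coding RNA database, and deposited raw counts per small RNA and mouse, not pooled and not normalised. The submitters' processing notes also name DESeq, without its role. Versions, the counting program, its use of strand and its treatment of reads that match several places are not given in the sources used here, so loci that share sequence, and genes on opposite strands, may share reads.

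Groups came from the sample titles. From the deposited counts, edgeR 4.0.16 in R 4.3.3 was run with TMM factors over all small RNAs, column totals as library size, filterByExpr with a minimum count of 10 and a minimum total of 15, and glmQLFTest, two-sided, diet as the only term, with Benjamini-Hochberg adjustment over all 16955 small RNAs tested. Standard errors were derived from the F statistic. Shares and ratios were compared with exact permutation tests over 70 assignments (scipy 1.17.1), the ratios as log2 of the count over that of the arms with 0.5 added to each. The CPM of single entries were compared by the same test, as log2 with 0.5 added. Arms were tied to hairpins through the RefSeq table (61 of 84) or by name. RefSeq hairpins were located in NCBIM37 (mm9) with GENCODE M1, and copies of each window of 20 bases were counted on both strands. The alternatives were DESeq2 1.42.0 and limma 3.58.1, other scalings, filters and thresholds, each pair of SD mice, a block on the mouse number, and each mouse left out. No 2 libraries were alike within sampling noise (chi-square per degree of freedom of 2.42 to 22.2 between mice). Figures were drawn with matplotlib 3.10.9.

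Named entries were the 8 with the highest mean CPM, those meeting the criteria or not overlapping between diets, up to 8 with no arm listed or more counts than their arms, loci of one miRNA, hairpins of the study's miRNA list, and the groups of hairpins described. The other entries given by name, among them mir-191, mir-425, mir-34a, mir-34c, mir-184 and mir-103-2, were chosen after their values were seen. The entries, lists and rules were chosen with earlier results of these data known.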

Additional observations from a re-analysis of the deposited data

Results flagged for a closer look

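In groups of 4 mice, 26 were examined for a mouse far from the other 3, of the tested entries, the share of counts and the depth. Chance flags about 1 in 20 groups, or 1.3 of 26, and 2 were found. The share of miRNA class counts on precursor names was 0.133% in M2W and 0.170% to 0.174% in the other WD mice. The total count was 2064562 in TN2 and 3101032 to 3253798 in the other SD mice. Without M2W the difference between diets in that share was -0.00437 percentage points (exact permutation p = 1), and without TN2 it was 0.00022 (exact permutation p = 0.971).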

How the results depend on the processing

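Of the 11 entries tested, 8 kept their direction under every alternative, and mir-16-1 met the criteria in every setting on 8 mice, with either pair of SD mice and with each mouse left out. The 2 entries meeting the criteria became 6 of 57 with no filter on low counts (mir-16-1, mir-16-2, mir-191, mir-5102, mir-3096 and mir-677), where 11% of all small RNAs were called as well, 4 against TN1 and TN2, and between 1 and 4 with each mouse left out. The count was 1 without M1N and 1 without M3W (mir-16-1), and 4 without M2W, which added mir-5105 and mir-5102. It was 3 without M2N, which added mir-5105, and 3 without M1W, which added mir-5102. Of these entries, mir-191, mir-5102, mir-3096 and mir-677 did not pass the filter on all 8 mice, nor did mir-34c, called against TN1 and TN2. In that comparison mir-5102 and mir-34c passed the filter through the mice where they were high. The number with an adjusted p under 0.05 (edgeR) rose from 0 to 1, mir-16-2, against M1N and M2N. The difference in share turned to 0.0163 percentage points against M1N and M2N, was -0.0445 against TN1 and TN2 (exact permutation p = 0.0667, the smallest that 4 against 2 mice allow), and ranged from -0.0247 to 0.00022 with each mouse left out. The number of ratios to the arms without overlap rose from 1 to 2 with every entry that has an arm (the second, mir-184, only with 0.5 added to its counts), and was 1 to 4 with each mouse left out.

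The log2 fold change of mir-468 turned to 0.0315 with column totals and 0.20 against M1N and M2N, and ran from -0.11 to 0.10 with a mouse left out. That of mir-5099 turned to -0.0117 against M1N and M2N and ran from -0.00278 to 0.29 with a mouse left out, and that of mir-449a turned to 0.0819 against TN1 and TN2 and ran from -0.52 to 0.042.

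M1N has the number of M1W, and M2N that of M2W, but these are different mice, the labels give no link, and the correlation of their deviations was -0.06. With the mouse number as a block, the fit on these 4 mice called 1 entry, mir-16-2, and the fit without the block on the same 4 mice also called 1. With the block, mir-16-1 had a log2 fold change of -0.71 (raw p of 0.12), and without it -0.71 (0.111). mir-468 turned to 0.286 with the block and 0.288 without it, and mir-5099 to -0.286 and -0.269. The cause of these changes was not tested. Depth is a limit, since 46 of the 57 entries could not be tested at the filter used.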
